A study of Mus musculus with 6 samples.

Results

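Il6, Tnfsf15 and Bcl3 are the 3 genes described here, out of 23332 transcript clusters measured in primary mouse embryonic fibroblasts (MEFs) with and without the Bahd1 gene. They were picked by symbol from the authors' table of 491 clusters called different between Bahd1-KO and Bahd1-WT MEFs, so their difference between the genotypes is a description here and no test of it is given. The other 22841 clusters carry no gene name in the files used. Bahd1 encodes a chromatin repressor, and the arrays ask which transcripts differ when it is missing.

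Each of the 6 arrays, 3 of Bahd1-KO and 3 of Bahd1-WT, held RNA from the fibroblasts of a separate C57BL/6 embryo at E13.5. Knockout embryos came from matings of heterozygous mice and carried the total ablation of Bahd1, wild-type embryos had the gene intact, and the labels name no agent added to either. The fibroblasts were whole-carcass cultures without the head, thawed once and grown for a single passage, so they may hold more than 1 cell type. Bahd1 is not among the named clusters, and its level was therefore not checked here. The paper reports that RT-qPCR verified the loss of its expression, with MEFs among the samples used.

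Interleukin 6, the product of Il6, is a secreted cytokine that fibroblasts make when they sense tissue damage, interleukin 1 or TNF. It binds the receptor chain IL6RA, and the complex then engages the shared chain gp130 (Il6st), which signals through JAK kinases to STAT3. Tnfsf15 encodes TL1A, a membrane-bound or shed ligand of the TNF superfamily whose receptor is DR3 (Tnfrsf25), known from endothelial and myeloid cells. Bcl3 is an atypical member of the IkB family. It stays in the nucleus, where it binds p50 and p52 dimers of NF-kB on DNA and can act as a coactivator or a corepressor, whereas classical IkB proteins hold NF-kB in the cytoplasm.

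Promoters are shown because NF-kB reads a short DNA word, the κB motif. RefSeq windows of build GRCm38.p6 run from 250 bases before to 50 bases after the annotated start, and 1 window was found for each of the 3 genes. Capitals mark matches to the κB consensus. The Il6 window lies at chr5:30012864-30013163 on the plus strand, the Tnfsf15 window at chr4:63745010-63745309 on the minus strand, and the Bcl3 window at chr7:19822706-19823005 on the minus strand.
Il6: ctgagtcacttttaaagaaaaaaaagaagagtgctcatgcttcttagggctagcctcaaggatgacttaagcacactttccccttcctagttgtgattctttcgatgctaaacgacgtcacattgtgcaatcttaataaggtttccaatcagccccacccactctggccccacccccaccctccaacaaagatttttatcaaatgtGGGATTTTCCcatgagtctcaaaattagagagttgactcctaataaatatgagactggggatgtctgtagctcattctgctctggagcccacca
Tnfsf15: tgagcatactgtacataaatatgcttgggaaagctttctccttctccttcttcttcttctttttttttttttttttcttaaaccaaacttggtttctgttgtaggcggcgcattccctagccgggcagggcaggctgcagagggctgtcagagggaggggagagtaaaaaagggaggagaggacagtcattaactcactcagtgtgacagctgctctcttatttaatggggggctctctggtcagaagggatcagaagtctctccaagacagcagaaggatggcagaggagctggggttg
Bcl3: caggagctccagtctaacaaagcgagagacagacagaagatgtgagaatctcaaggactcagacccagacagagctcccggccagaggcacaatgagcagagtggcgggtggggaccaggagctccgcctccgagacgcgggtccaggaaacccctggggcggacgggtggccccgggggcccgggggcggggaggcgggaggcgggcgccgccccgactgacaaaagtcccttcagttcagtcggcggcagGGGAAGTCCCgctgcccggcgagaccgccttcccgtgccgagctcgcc

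The Il6 window holds 1 κB match on the strand of the gene, from base -44 to base -35 relative to the start. The Bcl3 window holds 1 on the opposite strand, from base 3 to base 12 of the transcript, which reads GGGACTTCCC there. No match is in the Tnfsf15 window, which says only that these letters are absent from it. Both strands were searched for 5 motifs, and 4.51% of the 32851 windows in the table contain the κB motif. Of the other motifs, AP-1 (TGANTCA) was found once in the Il6 window and in 7.81% of all windows. The C/EBP motif (TTNNGNAA) was found once in the Il6 window, 2 times in the Tnfsf15 window and in 40.7% of all windows. The STAT motif (TTCNNNGAA, in 8.3% of all windows) and TATAAA (in 13.6%) were found in none of the 3. No 2 of these matches overlapped. GC made up 44% of the Il6, 48% of the Tnfsf15 and 69% of the Bcl3 window, against a median of 52.7% over all windows. A match is a description of the letters and was not tested as a binding site in these cells.

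**Figure D1:**
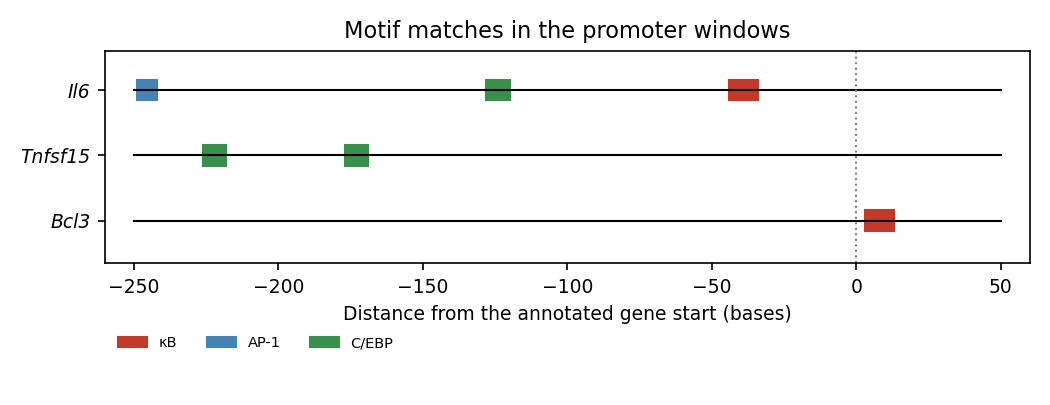
Matches to 3 of the motifs in the promoter windows of Il6, Tnfsf15 and Bcl3, plotted by distance in bases from the annotated gene start (dotted line), with colour for the motif. Il6 and Bcl3 each hold 1 κB match, upstream of the start in Il6 and just after it in Bcl3, and Tnfsf15 holds none.

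Il6 (cluster 6929591, 80 probes) read 6.16, 6.56 and 6.56 in Bahd1-KO MEFs 1 to 3 and 4.72, 5.41 and 5.42 in Bahd1-WT MEFs 1 to 3, as RMA expression values on the log2 scale. Every knockout array lay above every wild-type array, with a gap of 0.74 between the lowest knockout and the highest wild-type value, and within each genotype replicate 1 was the low one. The group means were 6.43 ± 0.23 (SD, n = 3) and 5.18 ± 0.40 (SD, n = 3). The difference was 1.24 with a standard error of 0.23 from the limma fit over all clusters, or 2.37-fold. Without Bahd1-WT replicate 1 the difference was 1.02.

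Tnfsf15 (cluster 6922317, 120 probes) read 6.16, 6.16 and 6.49 in Bahd1-KO MEFs and 5.21, 5.02 and 5.00 in Bahd1-WT MEFs 1 to 3. The groups did not overlap and were 0.95 apart at their nearest arrays, the widest gap of the 3 genes. Here the high knockout array was replicate 3 and the high wild-type array replicate 1. The means were 6.27 ± 0.19 (SD, n = 3) and 5.08 ± 0.12 (SD, n = 3), a difference of 1.19 (standard error 0.12) or 2.28-fold.

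Bcl3 (cluster 6973169, 80 probes) read 8.38, 8.52 and 8.63 in Bahd1-KO MEFs and 7.92, 7.76 and 7.57 in Bahd1-WT MEFs 1 to 3. Again no array of a genotype crossed into the other, but the gap was 0.46, the narrowest of the 3. Its means were 8.51 ± 0.12 (SD, n = 3) and 7.75 ± 0.18 (SD, n = 3). The difference of 0.76 (standard error 0.12) corresponds to 1.69-fold, the smallest of the 3.

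**Figure D2:**
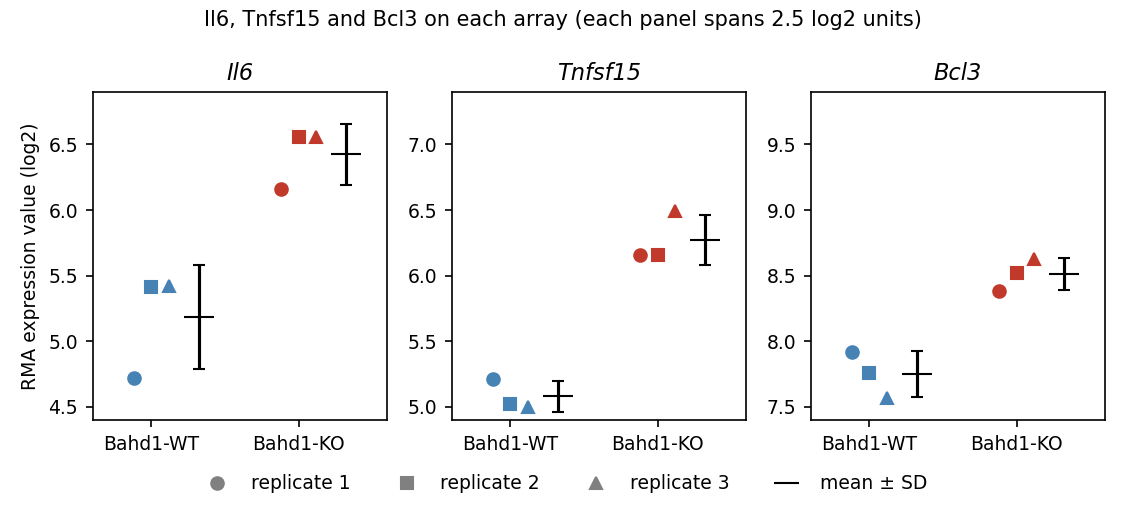
RMA expression value (log2) of Il6, Tnfsf15 and Bcl3 on each of the 3 Bahd1-WT and 3 Bahd1-KO arrays, with the symbol giving the replicate number and the bar the mean ± SD. In each gene all 3 Bahd1-KO values lie above all 3 Bahd1-WT values, and the wild-type spread is widest for Il6, from 4.72 to 5.42.

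That the arrays of the genotypes were apart in 3 of 3 genes follows from the way they were chosen, and nothing is read from it. Over all clusters, 11.4% had every knockout array above every wild-type array (9.51% after a second quantile normalization) and 6.64% had every knockout array below. A level at least 2-fold higher in Bahd1-KO MEFs was measured in 0.364% of clusters, 85 in number, Il6 and Tnfsf15 among them, and one at least 1.5-fold higher in 2.60%, Bcl3 included, while 2.66% were at least 1.5-fold lower. A larger positive difference than that of Il6 was measured in 32 clusters, than that of Tnfsf15 in 36 and than that of Bcl3 in 267. At an adjusted p under 0.05, limma called 0 of the 23332 clusters in either direction (0% of them), with 1527 higher and 898 lower at an unadjusted p under 0.05. Among the 11666 clusters above the median brightness, 29 were called higher and 7 lower.

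The spread between arrays of the same genotype also set the 3 genes apart from each other. Their mean signals lay at the 57.5th (Il6), 56.3rd (Tnfsf15) and 82.5th (Bcl3) percentile of all clusters, a rank of array brightness and not of transcript number. The pooled SD within genotypes was 0.33 for Il6, against a median of 0.15 for the 1000 clusters of nearest brightness, and exceeded 86.3% of them. For Tnfsf15 it was 0.16, above 51.1% of its neighbours, and for Bcl3 0.15, above 80.2%. Of the 3, Il6 had the widest spread between cultures of a genotype, and that of Tnfsf15 was close to the median of its neighbours. Of the 1000 clusters nearest in brightness, 0 had a larger positive difference than Il6, 1 a larger one than Tnfsf15 and 1 than Bcl3, which the choice of the genes by this contrast makes no finding.

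**Figure D3:**
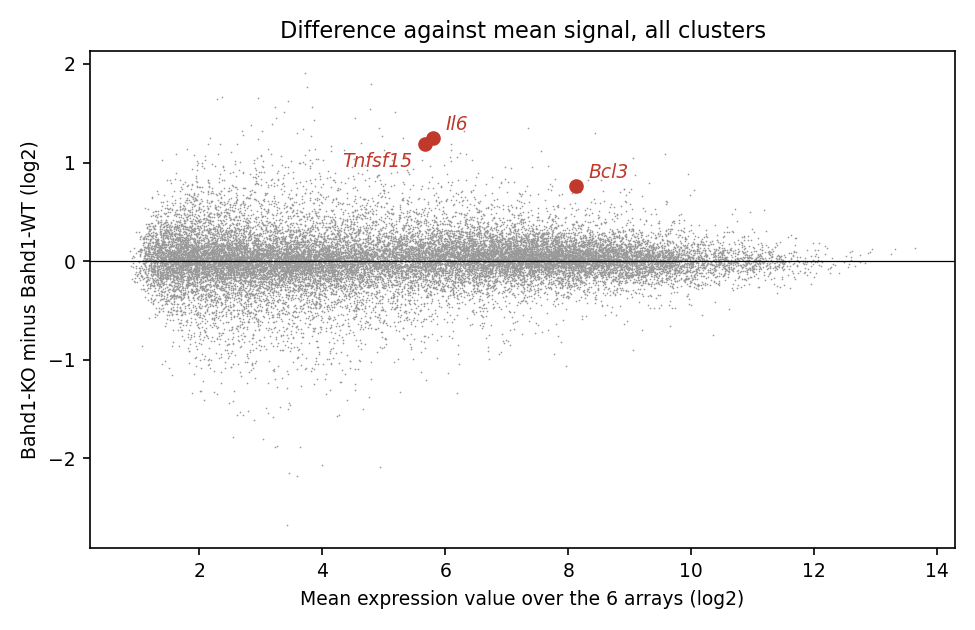
Difference between the genotypes (Bahd1-KO minus Bahd1-WT, log2) against the mean expression value over the 6 arrays (log2), with a grey point for each of the 23332 clusters and red points for the 3 genes. Il6 and Tnfsf15 sit side by side at differences of 1.24 and 1.19, and Bcl3 is brighter with a difference of 0.76.

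The 3 genes did not order the cultures in the same way. Within the knockouts, replicate 1 was the lowest array for Il6 (-0.27 from the mean of its group) and for Bcl3 (-0.13), while for Tnfsf15 replicates 1 and 2 lay together (-0.11 each) below replicate 3. Within the wild types, replicate 1 was the lowest array for Il6, at -0.46 from the group mean, but the highest for Tnfsf15 (0.13) and Bcl3 (0.17). Taking arrays of the same number side by side, the difference for numbers 1, 2 and 3 was 1.44, 1.16 and 1.14 for Il6, 0.95, 1.14 and 1.49 for Tnfsf15, and 0.46, 0.76 and 1.06 for Bcl3. Il6 thus differed most, and the other 2 genes least, between the arrays numbered 1. These numbers do not mark a known pairing of the cultures.

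Y-linked genes are carried by male embryos only, and the labels do not give the sex of the embryos. Their level divides the arrays unevenly between the genotypes. The mean log2 level of Ddx3y, Eif2s3y and Kdm5d was 7.03 to 7.19 in Bahd1-KO replicates 2 and 3 and Bahd1-WT replicate 2, and at most 2.38 in the other 3 arrays. Between the arrays with a high Y-linked level, the difference was 1.16 for Il6, 1.30 for Tnfsf15 and 0.81 for Bcl3. Between those with a low level it was 1.09, 1.05 and 0.64. Bahd1-WT replicate 2 was alone on its side of the first comparison. Bahd1-KO replicate 1 was alone on its side of the second. With the Y-linked level as a covariate, it was 1.13 for Il6, 1.18 for Tnfsf15 and 0.73 for Bcl3.

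Each cluster was compared with the extent of its gene, because a cluster can reach beyond the transcript it is named for. The Il6 cluster spans 92827 bases in the array annotation, against 6862 bases for the RefSeq gene. The Tnfsf15 cluster spans 68664 bases against 20460, and the Bcl3 cluster 14244 against 14363. The gene core level uses a subset of probes within these spans, and which parts of the Il6 and Tnfsf15 spans carry the signal was not tested.

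Among the IL-6 family, the files name 3 genes, and each was higher in Bahd1-KO MEFs with the genotypes apart. Every knockout array lay above every wild-type array in 11.4% of all clusters and in 293 of the 491 named ones. The named genes were called by the authors on this contrast, so such counts, here and in the lists below, are no result about a family. Of 8 ligands, Il6 and Lif are named. Leukaemia inhibitory factor, the product of Lif, signals through gp130 like interleukin 6, and it read 6.84, 6.87 and 7.21 in Bahd1-KO and 6.52, 6.35 and 6.05 in Bahd1-WT MEFs. Its difference was 0.67 (standard error 0.16), smaller than that of Il6. Of 6 receptors only Lifr, the receptor chain for Lif, is named. It read 7.44, 7.31 and 7.13 in the knockout and 6.78, 6.98 and 6.53 in the wild-type cultures, a difference of 0.53 (standard error 0.14). The Lifr difference was 0.24 between arrays with a high and 0.78 between arrays with a low Y-linked level. Il6ra, Il6st and 10 genes of JAK-STAT3 signalling and its inhibitors, Stat3 and Socs3 among them, are not named, so the receptor and signalling steps below interleukin 6 could not be looked up.

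Of the TNF superfamily, Tnfsf15 is the only one of 18 ligands that is named, and Tnfrsf22 the only one of 26 receptors. Tnfrsf22, a mouse decoy receptor for the ligand TRAIL and not a receptor of TL1A, read 7.30, 7.37 and 7.41 in Bahd1-KO and 6.95, 7.02 and 6.70 in Bahd1-WT MEFs, a difference of 0.47 (standard error 0.11) with the groups apart. The receptor DR3 and 11 adaptors of TNF receptors are not named.

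Around Bcl3, none of the 5 NF-kB subunits is named, p50 and p52 included, and Bcl3 is the only one of 6 IkB family genes. Of 11 kinases and scaffolds that activate NF-kB, Bcl10 is named, an adaptor that works with MALT1. It read 7.96, 7.77 and 8.02 in knockout and 7.61, 7.58 and 7.22 in wild-type cultures, a difference of 0.45 (standard error 0.14). Of 5 negative regulators, Cyld is named, a deubiquitinase that restrains NF-kB activation. It read 7.01, 7.18 and 7.27 against 6.34, 6.72 and 6.75, a difference of 0.55 (standard error 0.14). An activator and an inhibitor of the pathway were thus both higher, each with the genotypes apart and each by less than Bcl3.

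Interleukin 1 is a textbook inducer of Il6, and 2 of 11 genes of its family are named, both receptors. Il1r1, the signalling receptor, read 9.56, 9.68 and 9.54 in knockout and 9.26, 9.11 and 8.97 in wild-type cultures, a difference of 0.48 (standard error 0.10). Il1rl1, the receptor ST2 of the same family and not a receptor for interleukin 1, was higher by 0.68 (standard error 0.13). The genotypes were apart in both, and the Il1rl1 difference was 0.47 between arrays with a high and 0.92 between arrays with a low Y-linked level.

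Genes known to respond to NF-kB make up the longest list, with 15 of 46 named, the 3 members included. All 15 were higher in Bahd1-KO MEFs and 14 had the genotypes apart. For the 12 that are not members, the difference ran from 0.26 to 1.30 with a median of 0.64, and 11 had the genotypes apart. The median difference was 0.43 over the 491 named clusters, of which 354 were higher and 293 had every knockout array above every wild-type array. Over all 23332 clusters the median was 0.02, and 11.4% had every knockout array above every wild-type array. Being named means having been called by the authors on these arrays, so the share of higher genes in a list of named genes is not independent of the contrast. In limma, 0 of the 15 had an adjusted p under 0.05.

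The largest differences of that list were those of Olr1, Il6, Tnfsf15 and Selp. Olr1, which encodes a scavenger receptor for oxidised LDL, read 9.24, 9.08 and 8.92 in Bahd1-KO and 8.11, 7.90 and 7.32 in Bahd1-WT MEFs. Its difference of 1.30 (standard error 0.22) was of the same size as that of Il6. Selp, which encodes P-selectin, an adhesion molecule of platelets and endothelium, read 6.17, 5.95 and 5.42 against 4.91, 5.00 and 4.92, a difference of 0.90 (standard error 0.20). The Selp difference was 0.69 between arrays with a high and 1.26 between arrays with a low Y-linked level. Unlike Il6, neither had its low knockout array in replicate 1, and both were lowest in replicate 3 of the knockouts. The gene with overlapping genotypes was Plau, which encodes urokinase, with 9.5, 9.83 and 9.85 in knockout and 9.25, 9.68 and 9.46 in wild-type cultures.

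**Figure D4:**
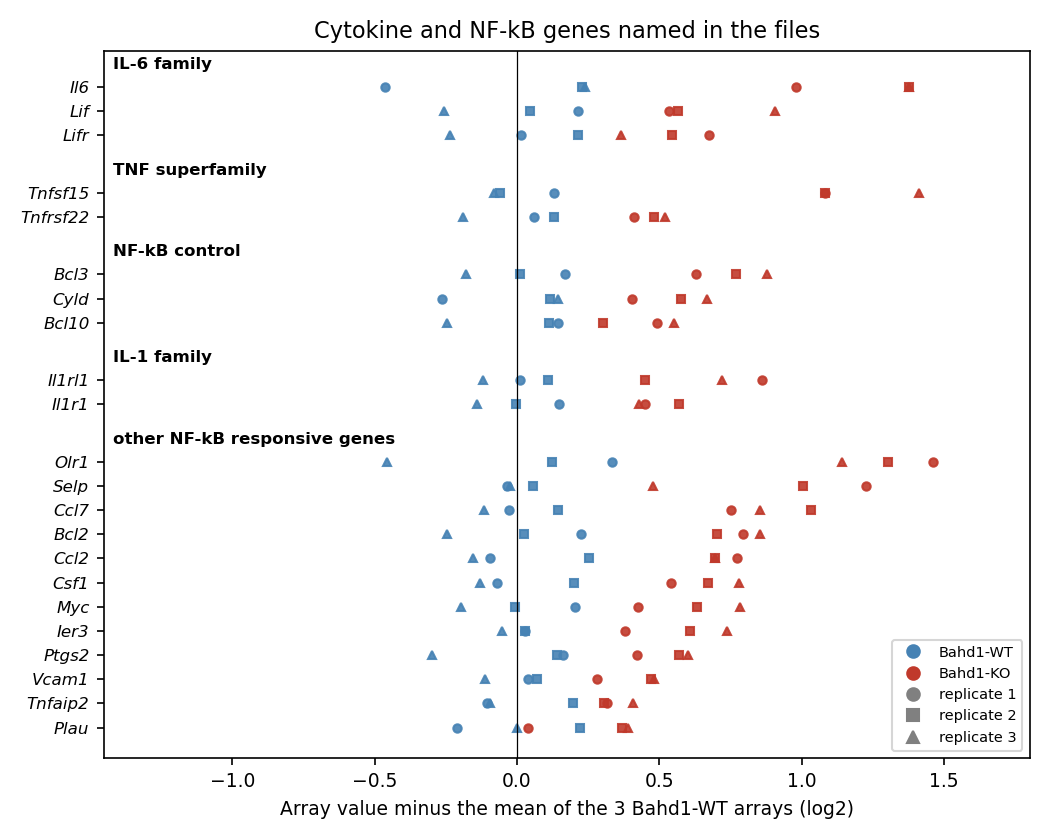
Array values minus the mean of the 3 Bahd1-WT arrays (log2) for the 22 genes of the cytokine and NF-kB lists that the files name, grouped by role, with blue symbols for Bahd1-WT, red for Bahd1-KO and the shape giving the replicate number. The red and blue symbols are apart for 21 of the 22 genes and overlap for Plau, while 11.4% of all clusters had every Bahd1-KO value above every Bahd1-WT value.

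Over these 22 genes of 151 listed, the low array was not the same one as for Il6 in the wild types. Bahd1-WT replicate 3 was the lowest of its group in 17 genes, replicate 1 in 5 and replicate 2 in 0. Among the knockouts, replicate 1 was the lowest in 13 genes, replicate 2 in 5 and replicate 3 in 4. Il6 was therefore among the 5 genes with their lowest wild-type value in replicate 1, while Bcl3 and Tnfsf15 were among the 17. Bahd1-WT replicate 3 also had the lowest limma array weight, 0.54 against 0.89 to 1.48 in the other arrays. Without that array the difference was 1.36 for Il6, 1.15 for Tnfsf15 and 0.67 for Bcl3.

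κB matches were then counted in the promoter windows of the NF-kB responsive genes. Windows were found for 10 of the 15 named genes, and 4 of these held a match: Il6, Bcl3, Csf1 and Ier3. Csf1, which encodes a macrophage growth factor, was higher in Bahd1-KO MEFs by 0.67 and Ier3, an early response gene, by 0.57. Named genes with a window but no match were higher too, by 1.30 for Olr1, 1.19 for Tnfsf15, 0.90 for Selp and 0.79 for Bcl2. Ptgs2 and Tnfaip2, also without a match, were higher by 0.53 and 0.34. Over the whole list, 14 of 34 genes with a window held a match (41.2%), against 5.14% of all 27025 genes with one. Some of these genes are known as NF-kB targets because of such sites, so the shares are given with no test.

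The genes most like each of the 3 were looked for among the other 490 named clusters, by the root mean square difference over the 6 arrays after subtracting each gene's wild-type mean. Closest to Il6 were Serpinb2 (0.21 on the log2 scale), which encodes a protease inhibitor, the chemokine gene Ccl17 (0.22) and Adm (0.31), which encodes the peptide adrenomedullin. In Serpinb2 and Ccl17, as in Il6, replicate 1 was the lowest array of each genotype. Adm shared the low wild-type replicate 1, at 4.77 against 5.91 and 5.83, but not the low knockout replicate 1. Closest to Tnfsf15 were the keratin gene Krt18 (0.12), Mfsd2a (0.13), which encodes a lipid transporter, and Foxs1 (0.17), which encodes a forkhead transcription factor. Closest to Bcl3 were Ubash3b (0.04), which encodes a phosphatase, the hexokinase gene Hk2 (0.07) and Bcl2 (0.08), which encodes an inhibitor of apoptosis. Tnfsf15 was 4th in order for Il6 (0.32), whereas Bcl3 was 54th (0.48). For Tnfsf15, Bcl3 was 28th (0.32) and Il6 34th. For Bcl3, Tnfsf15 was 258th and Il6 337th of the 490. The measure follows the size of the difference as well as its pattern, and all 491 clusters were named because they differed between the genotypes.

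Of the cell type markers, only those that the authors called different on these arrays are named. That the named markers differed between the genotypes follows from this, and nothing is read from it. Of 12 fibroblast markers the files name Lum and Pdgfra, and both were lower in Bahd1-KO MEFs, with differences of -0.59 and -0.55 on the log2 scale and the genotypes apart. Their summed signal, as the sum of the linear RMA values, was 442 to 564 in Bahd1-KO and 677 to 939 in Bahd1-WT MEFs. Of 16 symbols for markers of macrophages and other white blood cells, sources of interleukin 6 and TL1A, only Csf1r is named. Emr1 and Adgre1 in that list are symbols of the same gene. The Csf1r signal was 77.5 to 107 in Bahd1-KO and 66.1 to 71.3 in Bahd1-WT MEFs. Of 10 endothelial markers Emcn and Flt1 are named, with a summed signal of 284 to 374 against 172 to 247. The genotypes were apart for Emcn but overlapped for Flt1, at 7.74, 8.26 and 8.32 against 7.76, 7.66 and 7.21 on the log2 scale. Of 9 epithelial markers Krt18 and Krt19 are named, with 1122 to 1356 against 545 to 668. Of 7 skeletal muscle markers, Des and Acta1 gave 635 to 704 against 417 to 455. Of 5 markers of smooth muscle and myofibroblasts, Cnn1 gave 1860 to 2086 against 1364 to 1622. Of 7 neural markers, Nes gave 305 to 350 against 175 to 271. The other markers of each list are not named, and none could be read as being at 0. In bulk RNA, more cells of a type and more transcript per cell cannot be told apart, and the part that other cells had in the Il6, Tnfsf15 and Bcl3 values was not tested.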

How the data were processed

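RNA from 6 MEF cultures was hybridised to Affymetrix Mouse Exon arrays. Deposited values are on the log2 scale and come from the authors' RMA run at the gene core level (RMA is a background correction, a quantile normalisation and a summary of the probes of a transcript cluster). RMA draws the arrays to a common distribution and can shrink differences of dim genes. The authors also deposited a table of 491 named clusters with the same log2 values (largest difference between the files, 0), their fold changes and LPE test p-values, which were not used, and other annotation such as probe numbers and cluster ends. The genome build of the array annotation is not given in the sources used here, so its coordinates are not printed. The number of arrays limits the precision.

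All 23332 clusters were fitted with limma (version 3.58.1, R 4.3.3; lmFit and eBayes, two-sided, Benjamini-Hochberg, threshold 0.05), after checks on simulated data. This fit gave the standard errors and the background counts. The members and gene lists were chosen with earlier results of these data known. The text names the 3 members, the named genes of the lists (of lists with over 6, the 4 with the largest difference) and the 3 clusters most like each member. Csf1, Ier3, Ptgs2, Tnfaip2, Plau and the cell type markers were named after their values were seen. Each culture came from its own embryo.

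Alternatives were a trended and robust prior, a brightness filter, a second quantile normalisation, centring of arrays, array weights, a replicate block, the Y-linked level, each array left out, group medians and a 1.5-fold minimum. Deviations from the group means correlated at -0.0005, 0.03 and 0.0002 between same-numbered arrays.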

Additional observations from a re-analysis of the deposited data

How the results depend on the processing

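The differences of Il6, Tnfsf15 and Bcl3 kept their direction under all 17 alternatives each and moved by less than 1 SD of their replicates. Since the genotypes were apart in each gene, leaving arrays out, group medians and the Y-linked splits could not have reversed the direction. The alternative prior, the brightness filter, the replicate block and the authors' table of values leave the estimate unchanged by construction. With each array left out in turn, the difference ran from 1.02 to 1.38 for Il6, from 1.08 to 1.26 for Tnfsf15 and from 0.67 to 0.85 for Bcl3. Under the other 11 it ran from 1.09 to 1.27 for Il6, from 1.05 to 1.30 for Tnfsf15 and from 0.64 to 0.81 for Bcl3. Over all clusters, deviations of same-numbered arrays were close to uncorrelated. For Il6 both arrays numbered 1 were low, at -0.27 from the group mean in the knockouts and -0.46 in the wild types. Apart from the correlation of deviations and a replicate block, whether same-numbered cultures share more than a number was not tested. With the replicate block the differences of 1.24, 1.19 and 0.76 did not change, their standard errors were 0.10, 0.14 and 0.15, and limma called 0 clusters. In limma, 0 clusters were called higher and 0 lower under every alternative but the brightness filter, which tests fewer clusters and gave 29 and 7. Of the 18 other genes followed, none reversed, and 9 of 306 values moved by more than 1 SD, all of them within arrays of like Y-linked level. They belong to Lifr, Selp, Il1rl1, Serpinb2, Ccl17, Adm and Krt18. With a minimum of 1.5-fold, the counts of higher genes became 0 for IL-6 family receptors, TNF superfamily receptors, activating scaffolds and negative regulators of NF-kB, 1 for the IL-1 family and 10 of 15 for the NF-kB responsive genes, since Lifr, Tnfrsf22, Bcl10, Cyld and Il1r1 differed by less. Brightness over background is not in the files, and limits what can be said of dim clusters.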
